A study of Mus musculus with 3 samples.

Results

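T and natural killer (NK) lymphocytes were a rare class of cells in 3 droplet libraries of the mouse pituitary intermediate lobe, and they were picked out by their own transcripts. A cell barcode was taken as a member when it held at least 1 UMI (unique molecular identifier, a tag that marks 1 captured transcript) in 2 or more of the 8 genes Cd3d, Cd3e, Cd3g, Trbc1, Trbc2, Nkg7, Klrd1 and Ctsw, and in at most 1 of the 5 genes C1qa, C1qb, C1qc, Plvap and Dcn, which mark macrophages, endothelium and connective tissue. By this rule 76 of 9661 barcodes were members, with 32 of 2020 in WT, 14 of 4153 in P27NULL and 30 of 3488 in S2CK. Because these 8 genes chose the members, their levels below are a description of what was chosen.

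The intermediate lobe is made mostly of melanotrophs, endocrine cells that make Pomc, the precursor of melanocyte-stimulating hormone, and the study asked how Sox2 acts in its stem cells when p27 (Cdkn1b), an inhibitor of the cell cycle, is missing. Each library was 1 pool of dissected, dissociated lobes from mice aged 3 months that carried CreERT2 at Sox9, a Cre made active by tamoxifen in Sox9-expressing stem cells. WT had the genotype Sox9iresCreERT2/+ with p27 intact, P27NULL was Sox9iresCreERT2/+;p27-/-, and S2CK was Sox9iresCreERT2/+;Sox2fl/+;p27-/-, so that 1 Sox2 copy could be deleted in stem cells of mice lacking p27 in every cell. The study's methods also give all 3 a Rosa26ReYFP reporter, and tamoxifen was given at 4 weeks of age by the labels, whereas the text of the study speaks of induction at birth. WT animals are described as male and the others as of both sexes, and since each genotype had 1 library, differences between genotypes could not be tested. Every interval below is an exact 95% interval that covers counting error only, not the difference between animals.

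T cells recognise peptides through a receptor of paired chains that signals through the CD3 proteins, whereas NK cells carry no such receptor and read target cells through lectin-like receptors of the Klr family, several of which signal through the small adaptors encoded by Fcer1g, Tyrobp and Hcst. Both classes can kill by releasing granules and recruit other leukocytes with chemokines such as Ccl5 and Xcl1. Some T cells, NK cells and related innate lymphocytes settle in tissues instead of circulating, and such cells often carry the chemokine receptor Cxcr6.

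The knocked-out gene was too low in these cells to check the labels. Cdkn1b had 1 UMI in the WT members, 1 in P27NULL and 0 in S2CK, all at or under 3 counts, and whether the counted 3′ tags lie in the deleted stretch is not given in the sources used here. Sox2 and Sox9 had at most 1 UMI each in the members of any library. The members of all libraries were shallow, with a median of 1292.5 UMIs per barcode in WT, 1511 in P27NULL and 1799.5 in S2CK, against 3667, 2741 and 4918 in all other barcodes of the same libraries. The summed member totals were 52927, 37373 and 82862 UMIs, and the 3 deepest members held 29.6%, 49.1% and 34.1% of them. The WT table reached lower depths than the others, and 5 of its members lay under 1000 UMIs, a level no P27NULL or S2CK barcode fell below. Barcode sequences shared between libraries numbered 2 to 4 per pair, and none was a member.

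Some members carried melanotroph transcripts beside the lymphocyte genes. A UMI in 2 or more of the melanotroph markers Pax7, Oacyl, Megf11, Rbfox3, Drd2 and Esm1 was found in 0 WT, 2 P27NULL and 4 S2CK members. These barcodes held 39.5% of the summed member UMIs of P27NULL and 22.1% of those of S2CK, and 94.2% and 91.3% of the members' Pomc UMIs. No doublets were removed, so summed levels of P27NULL and S2CK are given below with and without these 6 barcodes where that matters. In the remaining members Pomc made up 0.843% of the summed UMIs in WT, 0.549% in P27NULL and 0.395% in S2CK. The per-barcode median over all members was 0.194%, 0.243% and 0.453%, against 10.3% to 12.1% in all other barcodes. In WT, 1 member of 6679 UMIs with 1 melanotroph marker held 357 of the 446 Pomc UMIs (5.35% of its own) and was kept in the sums without the 6 barcodes, and one of the 6, in S2CK, had just 1.87% Pomc. With this WT member also left out, the summed log2 ratios of P27NULL and S2CK to WT were -1.15 and -1.62 for the NK receptor list given below, -0.11 and 0.14 for T cell receptor and CD3, and 1.49 and 0.89 for the cell cycle list.

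Members near the threshold were few. In WT, 29 of 32 members held 3 or more rule genes, as did 12 of 14 in P27NULL and 26 of 30 in S2CK. Just inside the threshold, with exactly 2 rule genes, stood 3, 2 and 4 members. Just outside it, with 1 rule gene, stood 191, 265 and 369 barcodes, of which 188, 257 and 363 held Trbc2 alone. The 5 exclusion genes removed 0, 2 and 2 barcodes.

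**Figure D1:**
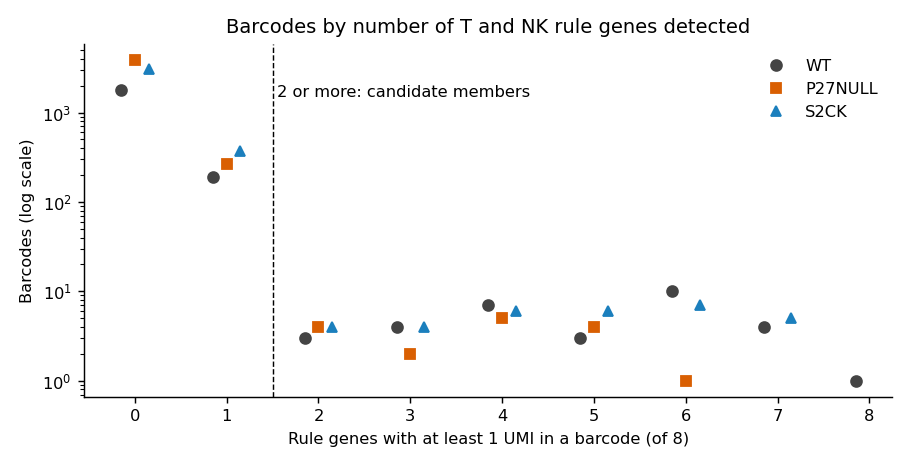
The plot counts barcodes (log axis) by the number of the 8 rule genes with a UMI, before the 5 exclusion genes were applied, with 1 symbol per library. Barcodes with 0 or 1 rule gene number 191 to 3872 per library, and those with 2 to 8 number at most 10 per library at each step.

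The members also formed a cluster of their own, although the genes of the rule entered that clustering, so this is a description. When the 3 libraries were clustered together, 1 cluster of 75 barcodes had Ccl5, Nkg7, Cd3g, AW112010, Cd3d, Klrd1, Hcst, Ctsw, Cxcr6 and Xcl1 as its 10 leading genes, among them 5 rule genes and all 5 markers set for T and NK cells, of which only Ccl5 lies outside the rule. This cluster held 72 of the 76 members, and 3 of the 4 left outside were barcodes with melanotroph markers. The fourth, from WT, fell in a cluster led by MHC class II genes and carried 115 UMIs of MHC class II genes, which antigen-presenting cells express. Macrophage and microglia markers were nearly absent from the members. Csf1r, Cx3cr1, Lyz2, Aif1, Adgre1, Mrc1 and P2ry12, which mark macrophages and microglia, had 0 UMIs in the members of every library, and the whole list of 12 such genes had 4, 0 and 12 UMIs in WT, P27NULL and S2CK. Of the B cell genes, Cd79a and Igkc had 0 UMIs, Cd79b had 1, and Ighm had 7, 6 and 2. Ighm was not absent, since 12 of the 76 members held it, with 15 UMIs against 160 in the 9585 other barcodes.

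The CD3 genes and Nkg7 were found almost nowhere but in the members, and their promoters are shown because these genes carry the definition of the class, beside that of Fcer1g, which divides it below. Sequences are the 250 bases before the start site in the promoter table of RefSeq (GRCm38.p6), 5′ to 3′ on the strand of the gene. Of 17 genes looked up, 9 had an entry. Capitals mark AGGAAG or its reverse complement CTTCCT, the core that ETS factors bind.
Cd3g, chr9:44980432-44980681, minus strand: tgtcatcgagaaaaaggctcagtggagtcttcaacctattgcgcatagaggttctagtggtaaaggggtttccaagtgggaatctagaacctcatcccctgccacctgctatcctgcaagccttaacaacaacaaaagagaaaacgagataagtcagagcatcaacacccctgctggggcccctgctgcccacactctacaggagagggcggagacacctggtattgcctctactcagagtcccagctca
Cd3d, chr9:44981536-44981785, plus strand: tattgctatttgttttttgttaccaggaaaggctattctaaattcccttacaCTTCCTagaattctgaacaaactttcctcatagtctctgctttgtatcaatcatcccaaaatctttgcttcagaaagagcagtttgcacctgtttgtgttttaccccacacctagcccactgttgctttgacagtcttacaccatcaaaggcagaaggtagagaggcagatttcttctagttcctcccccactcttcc
Cd3e, chr9:45009612-45009861, minus strand: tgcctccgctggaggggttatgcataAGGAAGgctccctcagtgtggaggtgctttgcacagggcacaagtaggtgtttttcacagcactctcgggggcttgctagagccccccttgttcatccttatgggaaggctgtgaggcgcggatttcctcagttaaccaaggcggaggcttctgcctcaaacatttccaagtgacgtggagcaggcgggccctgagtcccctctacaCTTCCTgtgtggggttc
Nkg7, chr7:43436888-43437137, plus strand: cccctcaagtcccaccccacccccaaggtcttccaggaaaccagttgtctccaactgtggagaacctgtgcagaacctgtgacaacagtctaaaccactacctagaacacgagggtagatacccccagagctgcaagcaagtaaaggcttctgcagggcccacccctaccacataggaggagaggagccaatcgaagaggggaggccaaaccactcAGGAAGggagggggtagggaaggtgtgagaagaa
Fcer1g, chr1:171234350-171234599, minus strand: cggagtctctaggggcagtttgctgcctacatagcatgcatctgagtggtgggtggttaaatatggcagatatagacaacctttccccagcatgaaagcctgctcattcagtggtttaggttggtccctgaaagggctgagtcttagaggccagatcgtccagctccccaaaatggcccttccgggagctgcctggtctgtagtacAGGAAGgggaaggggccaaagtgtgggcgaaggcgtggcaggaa
Cd3g and Cd3d lie head to head on chromosome 9, and the start sites of these windows are 1355 bases apart. The ETS letters, searched on both strands, occurred in 6 of the 9 promoters and in 29.2% of 27025 promoters of the same length. The RUNX letters TGTGGT occurred in 3 of 9, among them Nkg7, and in 14.2% of all, and the T-box letters TCACAC in 2 of 9 and in 12.2% of all. Matches of different motifs may overlap in part, and a match is a description of the letters alone.

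Members were least frequent in P27NULL, against each denominator used. They made up 1.58% of WT barcodes (1.09 to 2.23), 0.337% of P27NULL barcodes (0.184 to 0.565) and 0.860% of S2CK barcodes (0.581 to 1.23), and the interval of P27NULL lay below the others while those of WT and S2CK overlapped. With 3 or more rule genes required, or without the melanotroph-holding members, 12 members (0.289%, 0.149 to 0.504) remained in P27NULL and 26 (0.745%, 0.487 to 1.09) in S2CK, and these intervals overlapped. Melanotroph-marker barcodes differed in number too, with 1022 of 2020 in WT, 2711 of 4153 in P27NULL and 2646 of 3488 in S2CK. Per 100 barcodes without melanotroph markers there were 3.21 members in WT, 0.971 in P27NULL and 3.56 in S2CK, or 3.21, 0.832 and 3.09 when the melanotroph-holding members were left out. Per 100 macrophage-marker barcodes there were 23.4, 13.2 and 27.5 members. Fewer lymphocytes in the tissue and fewer captured on dissociation cannot be told apart.

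The T cell receptor complex was detected in most members of every library. CD3 is the signalling part of the receptor, and a UMI in any of Cd3d, Cd3e and Cd3g was found in 20 of 32 members in WT (62.5%, 43.7 to 78.9), 10 of 14 in P27NULL (71.4%, 41.9 to 91.6) and 25 of 30 in S2CK (83.3%, 65.3 to 94.4). At a fixed depth of 1000 UMIs the expected shares were 60.3%, 64.8% and 80.6%. The intervals overlap. In melanotroph-marker barcodes that were not members, which should lack CD3 and had median depths of 4607, 3369 and 5188 UMIs, a CD3 UMI was found in 0 of 1022, 1 of 2709 and 0 of 2642. Since CD3 genes are rule genes, a barcode with CD3 and another rule gene would have been a member.

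Within CD3, the genes did not keep a common order across libraries. Cd3d had a UMI in 43.8%, 35.7% and 73.3% of the members of WT, P27NULL and S2CK. Cd3e had one in 12 of 32, 9 of 14 and 9 of 30, and Cd3g in 19 of 32, 9 of 14 and 24 of 30. Cd3d was highest in S2CK (1038 CPM, the UMI count scaled to a common total per library, 830.2 to 1282) and lowest in P27NULL (241, 110.1 to 457), while Cd3e was lowest in S2CK (169, 92.4 to 283) and highest in P27NULL (455, 265 to 728). The log2 ratio of S2CK to P27NULL was 2.11 (1.12 to 3.28) for Cd3d and -1.43 (-2.56 to -0.32) for Cd3e, and 1.67 and -1.90 without the melanotroph-holding barcodes. Cd3e rested on 14 to 20 UMIs per library.

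Most UMIs of the receptor chain genes Trbc2 and Trac lay outside the members, whereas most of those of Trbc1 lay in them. Trbc2, a constant segment of the beta chain, was found in 24 of 32, 11 of 14 and 24 of 30 members, but also in 17.2%, 8.04% and 12.6% of melanotroph-marker barcodes and in only 1.46%, 1.89% and 0.917% of macrophage-marker barcodes. Members held just 18.3%, 6.48% and 15.8% of the Trbc2 UMIs of the 3 libraries. At 1000 UMIs per barcode, the expected share was 4.36%, 2.07% and 2.87% in melanotroph-marker barcodes and 0.259%, 0.197% and 0.215% in macrophage-marker ones. Trac, the constant segment of the alpha chain, had the same pattern, with 4.99%, 3.06% and 3.97% of melanotroph-marker barcodes against 0%, 0.943% and 0% of macrophage-marker barcodes. Trbc1, which is nearly identical to Trbc2 in its coding part, was at 0.0978%, 0.111% and 0.151% of melanotroph-marker barcodes. Members held 97.1%, 87.5% and 97.4% of the Trbc1 UMIs of WT, P27NULL and S2CK. How reads were divided between Trbc1 and Trbc2 is not given in the sources used here. For Cd3g and Nkg7, in contrast to Trbc2 and Trac, members held all UMIs in WT and P27NULL, and 97.3% and 97.8% of them in S2CK.

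Constant segments of the gamma and delta chains, Trdc and Tcrg-C1, Tcrg-C2 and Tcrg-C4, were found in 6 WT, 4 P27NULL and 11 S2CK members. Tcrg-C4 alone had a row in the WT table, so the libraries are not on the same footing for these genes. In S2CK, 2 members held 7 and 5 such UMIs and none of Trac, Trbc1 or Trbc2, and both also held CD3, Ccl5 (47 and 48 UMIs) and a Cd8 UMI. In the other 19 members with a gamma or delta segment, alpha or beta segments were present too. The coreceptor genes Cd8a or Cd8b1, which mark cytotoxic T cells, had a UMI in 8, 1 and 7 members, and all 16 held CD3. In S2CK 1 barcode of 12997 UMIs held 18 of the 30 Cd8 UMIs. Cd4, the coreceptor of helper T cells, had 1 UMI in P27NULL and no row in the other tables, and Foxp3, the factor of regulatory T cells, had no row in any. A gene with no row may have fallen under a minimum set when the tables were made, so its level was not measured here.

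The members divided by CD3 and by the adaptors Fcer1g and Tyrobp, and the balance of the 2 sides differed between libraries. This split was chosen after its values were seen. A UMI of CD3 with none of the adaptors was found in 46 of 76 members, of the adaptors with no CD3 in 17, of both in 9 and of neither in 4. In WT these numbers were 13, 12, 7 and 0, in P27NULL 9, 3, 1 and 1, and in S2CK 24, 2, 1 and 3. Of the 4 members with neither, 3 held 15.8% to 18.6% Pomc and just 2 rule genes.

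**Figure D2:**
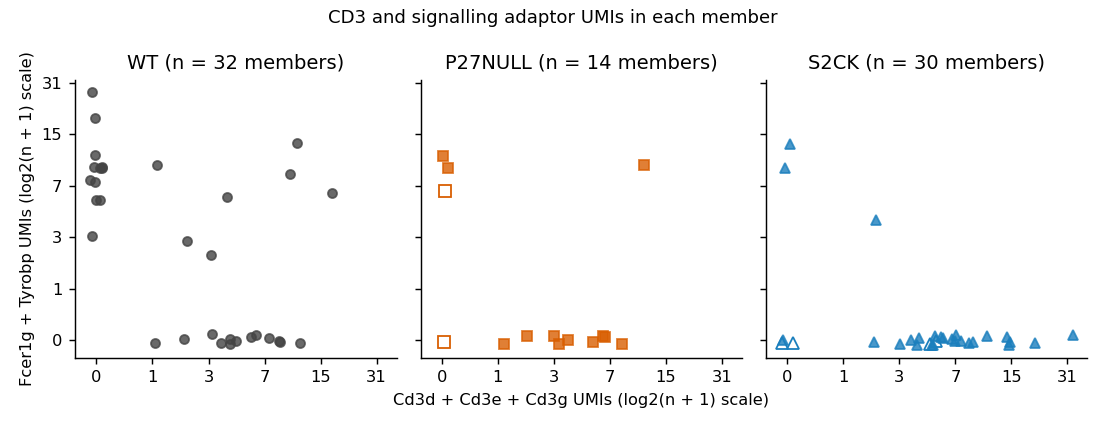
Each point is 1 member, placed by its summed Cd3d, Cd3e and Cd3g UMIs (x) and its summed Fcer1g and Tyrobp UMIs (y), on log2(n + 1) axes with a small random offset, 1 panel per library. Open symbols are members holding 2 or more melanotroph markers. WT points lie along both axes, 12 of 32 on the adaptor side without CD3, while 24 of 30 S2CK points lie along the CD3 axis.

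The 17 members with adaptors and no CD3 carried genes of NK cells that the rule did not use. The chemokine Xcl1 had a UMI in 15 of the 17, the activating receptor Klrk1 in 11, Il2rb, a receptor chain for interleukins that sustain NK cells, in 10 and the kinase Txk in 7. Ncr1, an activating receptor of NK and related innate cells, had a UMI in 8 of them and had a row in the WT table alone. Trac, Cd8a and Cd8b1 had none in these 17, the T cell adaptor Lat had a UMI in 1, and Ly6a in none. Other T cell genes were present, with the adaptor gene Skap1 in 5 of the 17 and Tcrg-C4 in 4. These 2 genes were found in 16 and 5 of the 46 members with CD3 and no adaptors. A member without CD3 had to hold at least 2 of Trbc1, Trbc2, Nkg7, Klrd1 and Ctsw, and these had a UMI in 11, 7, 16, 16 and 11 of the 17.

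The 46 members with CD3 and no adaptors carried the T cell signalling genes. Trac had a UMI in 29, Lat in 27, and Lck, the kinase that starts receptor signalling, in 24. Cxcr6 had a UMI in 30 of the 46 and in 6 of the 17, Ly6a in 19 and 0, and Cd8a in 10 and 0. Klrd1 had a UMI in 13 of the 46 against 16 of the 17, and Klrk1 in 6 against 11. Genes of both classes were shared by the 2 sides, such as Cd52, a surface glycoprotein of lymphocytes, with a UMI in all 46 and all 17, Hcst in 41 and 16, and Ccl5 in 28 and 16. The 2 sides had median depths of 1548 and 1253 UMIs.

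Over all members, Fcer1g or Tyrobp had a UMI in 19 of 32 in WT (59.4%, 40.6 to 76.3), 4 of 14 in P27NULL (28.6%, 8.39 to 58.1) and 3 of 30 in S2CK (10.0%, 2.11 to 26.5). The intervals of WT and S2CK did not overlap, and that of P27NULL overlapped both. At 1000 UMIs the expected shares were 57.5%, 26.5% and 9.97%, in the same order. Melanotroph-marker barcodes that were not members held these genes in 3.03%, 1.85% and 1.82%, and macrophage-marker barcodes, where both genes are high, in 97.8%, 99.1% and 98.2%.

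**Figure D3:**
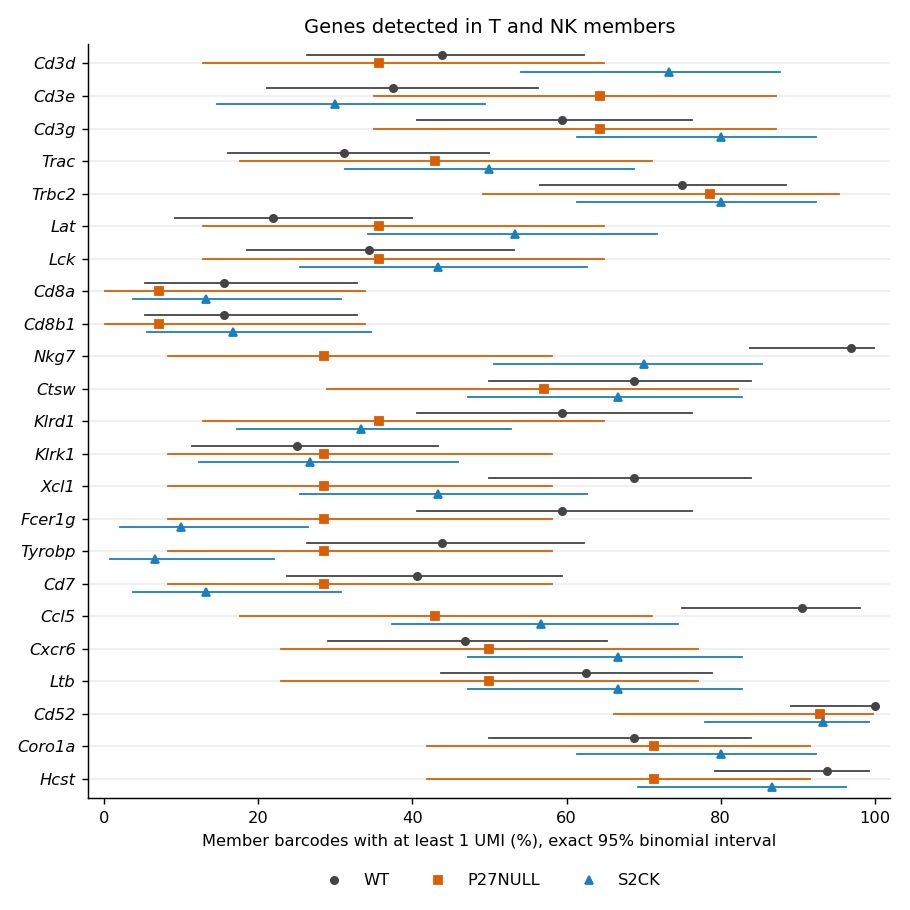
The plot gives, for each gene, the share of member barcodes with at least 1 UMI (x, in percent) with exact 95% binomial intervals, for WT (n = 32), P27NULL (n = 14) and S2CK (n = 30). The shares of Fcer1g, Tyrobp and Cd7 are highest in WT and lowest in S2CK, whereas Cd3d, Cd3g, Lat and Cxcr6 are highest in S2CK and Cd52 and Hcst are high in all.

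Part of the NK receptor list was lower in S2CK than in WT. Across all genes with 10 UMIs or more in S2CK and WT members together (1671), 3.53% were at least 2-fold higher and 4.37% at least 2-fold lower in S2CK with a counting interval clear of 0. Of 10 measured genes of the list, which also holds the rule gene Klrd1 and the GTPase gene Gimap4, 0 were higher and 5 lower (Klrd1, Klre1, Fcer1g, Tyrobp and Cd7), with a median log2 ratio of -1.58 against 0.05 for all genes. Among the other 5, Klrk1 was at -0.48 (-1.53 to 0.59), Il2rb at -1.35 (-2.82 to 0.03) and Hcst at -0.52 (-1.02 to -0.03). Fcer1g went from 128 UMIs in 19 WT members to 21 UMIs in 3 S2CK members (log2 ratio -3.25, -4.00 to -2.58). Tyrobp went from 43 to 5 UMIs (-3.75, -5.44 to -2.42), and Cd7, a surface protein of T and NK cells, from 36 to 6 (-3.23, -4.77 to -1.97). Without the melanotroph-holding barcodes these 3 ratios were -2.89, -3.39 and -2.87, and the same 5 genes were lower, with 3.67% of 1472 genes higher and 4.42% lower. The T cell receptor and CD3 list had a summed log2 ratio of 0.01 (-0.23 to 0.24), with 0 of 6 genes higher and 1 lower (Cd3e), but 5 of its genes are rule genes, and the rest (Trac and Tcrg-C4) had 27 UMIs in S2CK and 22 in WT (-0.35, -1.22 to 0.53). Without Klrd1 and Gimap4 the NK receptor sum was -1.85 (-2.14 to -1.56). Fewer cells of a kind among the members and less RNA per cell cannot be told apart in such sums.

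P27NULL members were lower than WT members in both sums, and the gap in the T cell receptor and CD3 sum was not seen without the melanotroph-holding barcodes. Of 1200 genes compared, 6.50% were higher and 5.17% lower by the same rule. Of 9 genes of the NK receptor list 0 were higher and 5 lower, with a summed log2 ratio of -1.45 (-1.78 to -1.13), and of 7 T cell receptor and CD3 genes 0 were higher and 2 lower (-0.67, -1.01 to -0.34). Without the 2 barcodes holding melanotroph markers, 3 NK receptor genes were lower (Fcer1g, Tyrobp and Cd7), with a sum of -0.96 (-1.31 to -0.62), and the T cell receptor and CD3 sum was 0.02 (-0.33 to 0.35). Trac and Tcrg-C4, the genes of the latter outside the rule, had 19 UMIs in all P27NULL members and 22 in WT (0.29, -0.68 to 1.24). By that count, 5.28% of 1003 genes were higher and 2.29% lower. Between S2CK and P27NULL, 0 of 8 NK receptor genes were higher and 3 lower in S2CK, beside 4.34% and 6.47% of 1545 genes. Fcer1g was at -1.51 (-2.41 to -0.63), Tyrobp had 5 UMIs against 9 and Cd7 had 6 against 9. The list sum was -0.26 (-0.62 to 0.11). Without the melanotroph-holding barcodes Fcer1g and Tyrobp were the 2 NK receptor genes of 8 that were lower in S2CK. The sum was then -0.41 (-0.80 to -0.02), with 3.55% of 1126 genes higher and 7.28% lower.

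**Figure D4:**
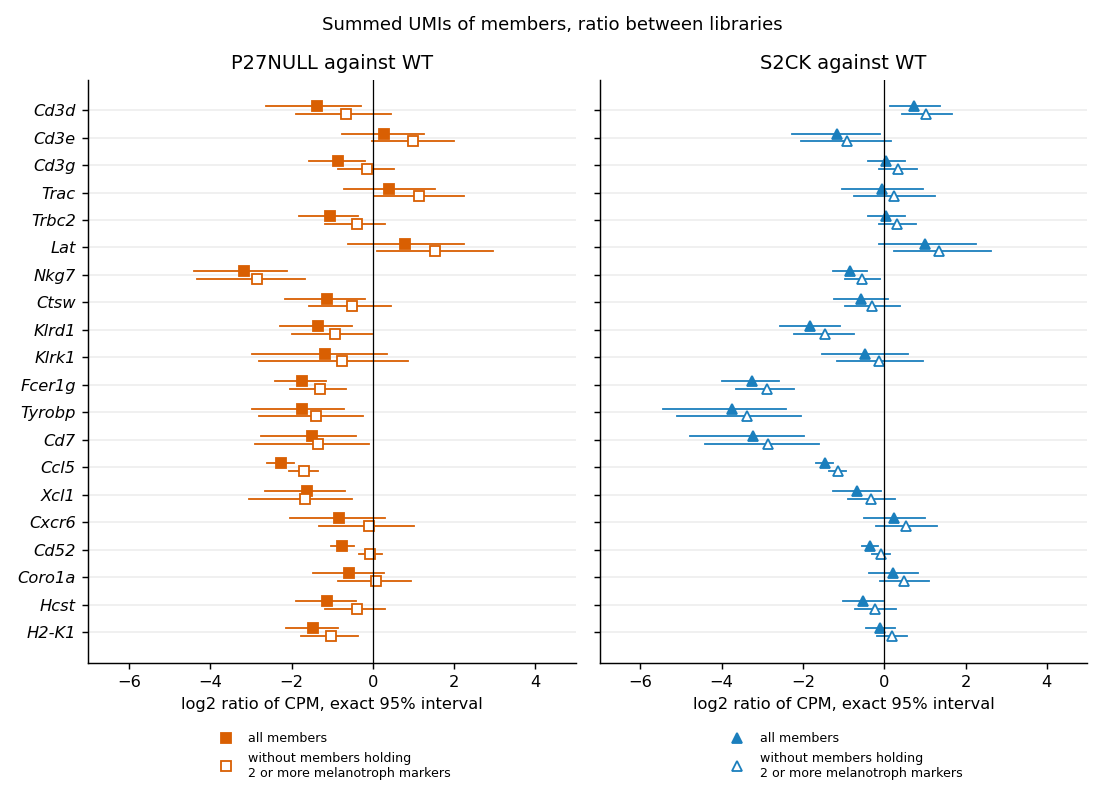
The plot shows log2 ratios of summed member CPM with exact 95% intervals, P27NULL against WT on the left and S2CK against WT on the right. Filled symbols use all members and open symbols leave out those holding 2 or more melanotroph markers, which moves most genes up, by unlike amounts. In P27NULL, Cd3g goes from -0.86 to -0.14 and Cd7 from -1.50 to -1.36, while Xcl1 goes down from -1.61 to -1.67. Fcer1g, Tyrobp, Cd7 and Ccl5 lie below 0 in both panels with either set, and Cd3g lies near 0 in S2CK.

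Nkg7, a protein of the granule membrane, was found least often in P27NULL. A UMI of Nkg7 was found in 31 of 32 WT members (96.9%), 4 of 14 P27NULL members (28.6%) and 21 of 30 S2CK members (70.0%). Per barcode the median was 2 UMIs in WT, 0 in P27NULL and 2.5 in S2CK, with the highest at 7, 3 and 19. The log2 ratio of P27NULL to WT was -3.16 (-4.41 to -2.12), and -2.85 without the melanotroph-holding barcodes. Nkg7 is a rule gene, so its level describes which barcodes were taken. Ctsw, a protease of the same cells and also a rule gene, was detected in similar shares of 68.8%, 57.1% and 66.7%.

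Granule proteases were sparse. Of the cytotoxic list, 3 genes had enough UMIs to compare P27NULL with WT and all 3 were lower (Nkg7, Ctsw and Srgn, the first 2 rule genes), beside 5.17% of all genes. Without the melanotroph-holding barcodes Nkg7 was lower, beside 2.29% of all genes. Gzmb, a protease that triggers death of the target cell, had 10 UMIs in 6 WT members and 3 UMIs in 3 S2CK members, and had no row in P27NULL. Gzma had 35 UMIs in 3 S2CK members, 30 of them in 1 barcode, and no row in the other tables. Gzmk had 5, 0 and 6 UMIs, and Prf1, the pore-forming protein, had no row in any table. Srgn, the proteoglycan that packs granules, had a UMI in 21 of 32, 6 of 14 and 15 of 30 members.

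Ccl5, a chemokine that draws T cells and monocytes, stood out from the other barcodes more than any other gene named by the size rule below. Against all other barcodes, its CPM was 518, 621 and 516 times as high in the members of WT, P27NULL and S2CK. It had a UMI in 29 of 32, 6 of 14 and 17 of 30 members, with 10883 CPM (10012 to 11809), 2274 (1817 to 2812) and 3934 (3519 to 4385). Per barcode the median was 15.5 UMIs in WT, 0 in P27NULL and 2 in S2CK, while the highest barcodes reached 67, 40 and 75. Ccl5 was thus both less often found and lower in sum in the p27-/- libraries, with log2 ratios to WT of -2.26 (-2.60 to -1.93) in P27NULL and -1.47 (-1.67 to -1.27) in S2CK, and -1.69 and -1.15 without the melanotroph-holding barcodes. Among macrophage-marker barcodes 7.30%, 10.4% and 9.17% held Ccl5, and among melanotroph-marker barcodes at most 0.265%.

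Other chemokines and cytokines were less even. Xcl1, which attracts cross-presenting dendritic cells, had a UMI in 22, 4 and 13 members and log2 ratios to WT of -1.61 (-2.65 to -0.69) in P27NULL and -0.67 (-1.26 to -0.09) in S2CK. In S2CK 30 of its 51 UMIs were in 1 barcode. Ccl4 was higher in S2CK than in WT (36 against 2 UMIs), but 91.7% of the S2CK UMIs were in 1 barcode. Ltb, a lymphotoxin, was found in 20 of 32, 7 of 14 and 20 of 30 members. Tnf had 0 UMIs, and Ifng, the main effector cytokine of both classes, had 4 UMIs in S2CK and no row elsewhere.

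Cxcr6, the receptor often carried by resident lymphocytes, was found in many members, whereas other genes tied to residence were sparse. Cxcr6 had a UMI in 15 of 32, 7 of 14 and 20 of 30 members, and at most 0.0378% of melanotroph-marker barcodes held it. Its log2 ratio to WT was -0.82 (-2.04 to 0.29) in P27NULL and 0.23 in S2CK with an interval that spans 0. No difference from WT was thus detectable at this depth. The ratio of S2CK to P27NULL was 1.05 (0.05 to 2.21), and 0.62 (-0.39 to 1.78) without the melanotroph-holding barcodes. Cxcr3, a receptor for interferon-induced chemokines, had a UMI in 6 of 32, 4 of 14 and 12 of 30 members, and Rgs1, a brake on signals from such receptors, in 7, 2 and 6. Cd69, which holds lymphocytes in tissue, had 2, 1 and 3 UMIs, and the integrin genes Itgae and Itga1 had 0, 1 and 0 and 4, 1 and 0. Of the genes of naive and recirculating cells, S1pr1, the receptor for exit into the blood, had 0 UMIs in all libraries, Tcf7 had 1, 0 and 3, and Klf2 had 2, 3 and 2. The whole list of 10 such genes held 9, 13 and 29 UMIs, 12 of the last from Dapl1.

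Genes common to leukocytes were high in the members of every library. The size rule took the 15 genes outside the rule genes with the highest fold over all other barcodes in the least favourable library. It gave Ccl5, AW112010, Coro1a, Hcst, Cd52, Trac, Ptpn18, Psmb8, B2m, S100a6, Tmsb4x, Hmgb2, Tmsb10, Crip1 and Actb. The lowest of the 3 folds was 181 for AW112010, an interferon-inducible transcript, 82.3 for Coro1a, an actin regulator of leukocytes, 75.0 for Hcst and 63.2 for Cd52, and fell to 7.06 for Actb. Among all genes compared, 19.4%, 10.9% and 13.5% were at least 4-fold higher in members than in the other barcodes of WT, P27NULL and S2CK. The summed pan-leukocyte list was lower in P27NULL than in WT at -0.77 (-0.98 to -0.56) and -0.11 (-0.33 to 0.10) without the melanotroph-holding barcodes. With the WT member that had the most Pomc also left out, it was at -0.27 (-0.48 to -0.05).

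MHC class I genes, which display peptides to T cells and hold off NK cells, were lower in P27NULL for part of the list. Of 10 measured, 0 were higher and 2 lower than in WT, H2-K1 and H2-Q7, beside 6.50% and 5.17% of all genes. Without the melanotroph-holding barcodes these 2 were again the ones lower, beside 5.28% higher and 2.29% lower of 1003 genes. H2-K1 had a UMI in 32, 11 and 26 members, with log2 ratios to WT of -1.47 (-2.14 to -0.85) in P27NULL and -0.10 (-0.46 to 0.27) in S2CK. H2-Q7 had a UMI in 14, 2 and 18 members, and its reads may be shared with near-identical class I genes. B2m, the common light chain, was found in 93.8%, 92.9% and 86.7%. Of 10 measured interferon-stimulated genes, 1 was higher and 3 lower in S2CK than in WT, beside 3.53% and 4.37% of all genes, with Isg15 at 22, 3 and 7 UMIs and Ifit3 at 10, 0 and 1 UMIs, where 10 UMIs came from 2 WT members. Ly6a was higher in S2CK than in WT (25 against 6 UMIs, log2 ratio 1.41, 0.09 to 2.99) and was found in 43.3% against 12.5% of members.

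Genes of the cell cycle were found together in a few members. UMIs in 6 or more of 17 genes of S, G2 and M phase were found in 2 WT, 3 P27NULL and 2 S2CK members (6.25%, 21.4% and 6.67%), against 0.402%, 0.556% and 0.578% of all other barcodes. The intervals of the members were wide, 0.766 to 20.8, 4.66 to 50.8 and 0.818 to 22.1, and overlapped. These members had median depths of 6184, 3492 and 10744 UMIs, which is far above the median member, and depth was not matched in this count. The summed list had a log2 ratio to WT of 0.73 (0.32 to 1.15) in P27NULL and 0.46 (0.10 to 0.83) in S2CK. Past the fold were 0 of 6 and 0 of 7 genes, beside 6.50% and 3.53% of all genes that were higher. Without the melanotroph-holding barcodes P27NULL was at 1.33 (0.91 to 1.76). Of 6 genes, 3 were then higher (Hmgb2, Stmn1 and Tuba1b), beside 5.28% of 1003 genes. The 3 P27NULL barcodes counted above held 21, 49 and 23 UMIs of the list. S2CK against WT gave 0.73 (0.36 to 1.11) on the same footing. There 1 of 7 genes was higher (Ube2c), beside 3.67% of 1472 genes. Of the D cyclin genes, Ccnd2 had 15, 8 and 10 UMIs and Ccnd3 had 11, 7 and 10.

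For several of the genes named by size of difference, 1 barcode held most UMIs. Between S2CK and WT the 5 largest decreases were Cd74, Tyrobp, Fcer1g, Cd7 and Cst3, and 98.6% of the Cd74 and 89.9% of the Cst3 UMIs of WT were in 1 barcode. The 5 largest increases were Ccl4, Srsf3, Rexo2, Mrpl57 and Psmb2, of which Srsf3, a splicing factor, had 31 UMIs in 16 S2CK members against 4 UMIs in 4 WT members (2.31, 0.81 to 4.27). Between P27NULL and WT the increases were Bex3, Alyref, Anp32b, Gpx1 and Mif and the decreases Cd74, Nkg7, Mbnl1, Cst3 and Ccl5. The Bex3 ratio was 2.31 (1.14 to 3.65), with 28 UMIs in P27NULL members. Without the melanotroph-holding barcodes the Bex3 ratio was 1.69 (0.24 to 3.20), with 11 UMIs. Mbnl1, another splicing factor, had 3 UMIs in 3 P27NULL members against 29 UMIs in 16 WT members (-2.77, -5.13 to -1.08). Between S2CK and P27NULL, where 4.34% of 1545 genes were higher and 6.47% lower, the increases were H2-Q7, S100a4, Nkg7, Rbm3 and Cd3d and the decreases included Erh, Fundc2, Alyref and Gpx1. Rbm3, a cold-induced RNA-binding protein, had a UMI in 27 of 30 S2CK members and 6 of 14 P27NULL members.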

How the data were processed

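The authors dissociated intermediate lobes, made 10x Chromium Single Cell 3′ v3 libraries and counted UMIs with Cell Ranger 3.0.2 (STAR 2.5.1b, mm10, per the submitters' processing notes, which also list R 3.6.0 and Seurat 3). Their deposited tables hold raw UMI counts per gene and barcode, 15527 genes in all 3 tables and 17775 in any, with barcodes already filtered. Strand handling is not given in the sources used here. Gene positions and promoters are from RefSeq GRCm38.p6. The members and the 35 gene lists were chosen with earlier results of these data known.

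Member UMIs were summed per library and scaled to CPM. Levels have exact Poisson, shares Clopper-Pearson and log2 ratios exact conditional intervals (95%, SciPy 1.17.1, Python 3.11.15). Lists were described over genes listed in both tables with 10 or more UMIs in the pair of member sums. A gene was counted as higher or lower at 2-fold or more with an interval clear of 0. With 1 library per genotype, no p-value was computed. Genes were named from the lists, from the 15 with the highest lowest-of-3 fold over other barcodes (at least 15 UMIs per library), and from the 5 largest increases and decreases per contrast (at least 30 UMIs, member CPM at least that of other barcodes in the higher library, no ribosomal protein, mitochondrial or sex-linked genes). Of the genes so named, 1 is not reported here. Macrophage-marker barcodes held 2 or more of C1qa, C1qb and C1qc and were not members. Joint clustering used scanpy 1.11.5 with 2000 variable genes, 20 principal components, 20 neighbours and Leiden resolution 1. Ratios were also tested on simulated counts. Alternatives were filters of 1000 UMIs or 500 genes, 3 rule genes, members from joint clustering, members without melanotroph markers, thinning to 1000 UMIs, other totals, TMM factors from edgeR 4.0.16, and other UMI minimums. Sums without rule genes, and without the WT member with the most Pomc, were chosen after seeing the data.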

Additional observations from a re-analysis of the deposited data

How the results depend on the processing

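Shares of members among barcodes moved by less than their counting interval under the 5 alternatives of member rule and filter, although with 3 rule genes or without the melanotroph-holding members the intervals of P27NULL (0.149 to 0.504) and S2CK (0.487 to 1.09) came to overlap. Filters of 1000 UMIs or 500 genes, and a total that leaves out Pomc and the mitochondrial and ribosomal genes, moved none of the list ratios. Leaving out P27NULL barcodes with Xist could not move them, since 0 of 14 P27NULL members held Xist. The share of S2CK members with CD3 went from 83.3% to 96.2% when 3 rule genes were required, since barcodes with few rule genes leave the set. That share and the adaptor share were tried after their values were seen. No paired analysis was possible because each genotype has 1 library.

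The log2 ratios of lists depended on which members entered the sums. In the chemokine list, Ccl5 alone held 576 of 671 UMIs in all WT members and 85 of 115 in all P27NULL members. In all S2CK members it held 326 of 468. Without the melanotroph-holding barcodes, which lower the totals of P27NULL and S2CK, the P27NULL to WT ratios were 0.02 for T cell receptor and CD3 (in place of -0.67), -0.96 for NK receptors (-1.45), -1.35 for the cytotoxic list (-1.88), -1.50 for chemokines (-2.04) and -0.11 for pan-leukocyte genes (-0.77). The S2CK to P27NULL ratios were then 0.24 for T cell receptor and CD3 (0.66) and 0.15 for pan-leukocyte genes (0.52), and Cd52 turned to -0.02 (0.40). The S2CK to WT ratios were 0.27 for T cell receptor and CD3 (0.01) and -1.42 for NK receptors (-1.75). They were -0.83 for chemokines (-1.17) and 0.04 for pan-leukocyte genes (-0.25). Rule genes are part of all these T cell receptor and CD3 sums. Without the rule genes, S2CK to P27NULL was at -0.26 (-0.96 to 0.47) in all members. It was at -0.60 (-1.31 to 0.15) when the melanotroph-holding barcodes were left out too.

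With 3 rule genes required, P27NULL to WT gave -0.94 for NK receptors, -1.61 for chemokines and -0.37 for pan-leukocyte genes, S2CK to P27NULL gave 0.37 for chemokines (0.88), and S2CK to WT gave 0.04 for pan-leukocyte genes. With members from joint clustering, pan-leukocyte genes were at -0.40 (P27NULL to WT) and -0.05 (S2CK to WT) and chemokines at -0.99 (S2CK to WT). Thinned to 1000 UMIs per barcode, P27NULL to WT gave -0.95 for NK receptors, -0.41 for tissue residence (-0.97) and -0.36 for pan-leukocyte genes, S2CK to P27NULL gave 0.30 for pan-leukocyte genes and -0.11 for Ifi27l2a, and S2CK to WT gave -1.26 for NK receptors, -0.81 for chemokines and -0.05 for pan-leukocyte genes. TMM factors (1.03, 1.13 and 0.858 for WT, P27NULL and S2CK) shift every ratio of a pair by 1 constant and raised S2CK, against P27NULL to 1.06 for T cell receptor and CD3, 0.15 for NK receptors (-0.26), 1.28 for chemokines and 0.92 for pan-leukocyte genes, and against WT to 0.27, -1.49, -0.90 and 0.01 for the same lists. Apart from what a smaller total explains by construction, the cause was not tested. The T cell receptor and CD3 sums in this paragraph also include the rule genes.

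Depth limits most genes here. A gene at 0 UMIs in the P27NULL members is compatible with up to 98.7 CPM, and UMIs of 1 barcode are not independent, so intervals on sums are too narrow where a few barcodes hold most UMIs.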

Other observations

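Sex-linked transcripts differed between the pools. Xist had a UMI in 16 of 30 S2CK members and in 0 of 14 P27NULL members, and had no row in the WT table. Y-linked genes had a UMI in 2 WT, 1 P27NULL and 0 S2CK members, and no member held both. The part of the sexes in the differences between libraries was not tested.

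GIMAP genes, small GTPases of lymphocytes, were found in members of every library, with Gimap3 in 16 of 32, 6 of 14 and 17 of 30 and Gimap6 in 14, 6 and 14 of the WT, P27NULL and S2CK members. Their summed log2 ratio to WT was -0.65 (-1.17 to -0.15) in P27NULL and -0.45 (-0.83 to -0.07) in S2CK, with no single gene past the fold, and 0.04 (-0.48 to 0.55) and -0.16 (-0.55 to 0.23) without the melanotroph-holding barcodes. Skap1, a T cell adaptor gene, was found in 11.4%, 7.71% and 12.8% of melanotroph-marker barcodes and in 2.19%, 1.89% and 2.75% of macrophage-marker barcodes, the same direction as Trbc2 and Trac, while the share in members was 31.2%, 21.4% and 40.0%.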
